A study of Homo sapiens with 9 samples.

Results

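AP-1 is a dimeric transcription factor built from FOS and JUN proteins, and most of its subunits belong to the immediate early genes, which cells transcribe within minutes of a growth factor, cytokine or stress signal without new protein synthesis. The 10 genes described here are 4 FOS family genes (FOS, FOSB, FOSL1, FOSL2), 3 JUN family genes (JUN, JUNB, JUND), 2 zinc finger EGR genes (EGR1, EGR3) and ATF3, a stress-induced bZIP gene. They were chosen by name, with 1 RefSeq transcript per gene, out of 20878 genes in the deposited counts. All 10 passed the filter on low counts, which left 14255 genes for testing. The lowest count of any of them in any library was 59, for FOSB in APC replicate 2.

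Polyadenylated RNA was sequenced from SW480, a human colorectal cancer line with defective APC, and from 2 lines made from it. CONTROL denotes the line R38.7, which held pEF without an insert, and APC denotes the line D2.15, which held pEF-mycAPC. Each group held 3 libraries from parallel plates harvested at 72 h. G418 at 1.5 mg/ml was present for both transfected lines and absent for the parent. Plates received 335000 cells of SW480 and CONTROL and 200000 cells of the APC line. A transfected line is a single derivative. Construct, line and plating density cannot be told apart in APC against CONTROL, nor can these and G418 in APC against SW480. In CONTROL against SW480, with equal plating, construct, line and G418 cannot be told apart. The p-values reflect variation from plate to plate, which may be technical. In bulk RNA, fewer cells with a transcript and less of it per cell cannot be told apart either.

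FOS proteins cannot dimerise with themselves and need a JUN partner, whereas JUN proteins can also pair with each other. ERK signalling induces FOS, EGR1 and EGR3 through serum response factor and its ELK partners, and JNK signalling acts on JUN. FOSL1 and JUN have been described as targets of beta-catenin and TCF in colorectal carcinoma cells, and APC is part of the complex that keeps beta-catenin low.

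Total counts over genes were 16456738 to 19358025 per library. APC transcript stood at 46.3 to 51.5 CPM (read counts scaled to a common library size with TMM) in the 6 SW480 and CONTROL libraries and 140 to 150 CPM in the APC libraries. Replicates of 1 group differed by more than sampling noise, and SW480 replicate 1 was the farthest from its group: its chi-square per degree of freedom was 5.16 and 5.61 against the other SW480 libraries, which gave 2.35 between themselves. Of the 8 epithelial markers, KRT8, KRT18 and KRT19 were abundant in each line (at least 373 CPM on average), and CDX1 had 1 count in all. CDH1 stood at 7.23 in SW480, 8.73 in CONTROL and, for the APC line, 133 CPM. EPCAM went from 49.4 and 42.4 to 382 CPM and VIL1 from 0.304 and 0.414 to 4.62 CPM, whereas CDX2 went the other way, from 27.1 and 24.7 to 14.9 CPM. The part of these marker differences in the values of the 10 genes was not tested. The summed epithelial markers are mostly keratins and ranged from 5400 to 6043 in SW480, 6023 to 6320 in CONTROL and 6206 to 6376 CPM in APC libraries. The 4 counted leukocyte markers summed to 2.42 to 2.59, 0.921 to 1.45 and 1.65 to 1.87 CPM in the same order, the 3 counted fibroblast markers to 13.03 to 13.99, 9.88 to 12.37 and 11.68 to 12.97 CPM, and the 3 endothelial markers to 0.645 to 0.750, 1.04 to 1.29 and 1.10 to 1.46 CPM.

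FOS, EGR1 and EGR3 were each reduced to a small fraction of their level in the APC line, FOSB, FOSL2 and ATF3 fell less, and FOSL1 rose. In APC against SW480, 9 of the 10 genes were called, 1 higher and 8 lower, where 72.5% of all genes tested were called (adjusted p under 0.05 in the quasi-likelihood test of edgeR). Their median log2 fold change was −0.67, against −0.01 over all genes tested. In APC against CONTROL, 8 of 10 were called, 2 higher and 6 lower, against 70.2% of all genes, with a median of −0.69 against −0.01. Between CONTROL and SW480, 6 of 10 were called, 1 higher and 5 lower, against 50% of all genes, with a median of −0.18 against −0.01. Called and over 2-fold were 4 of the 10 genes in APC against SW480 (19.1% of all genes tested), 3 in APC against CONTROL (18.3%) and 0 in CONTROL against SW480 (4.9%). FOS, EGR1 and EGR3 were more than 4-fold lower in both APC comparisons, as were 4.83% and 4.41% of all genes, and none of the 10 was between CONTROL and SW480 (0.73%). Higher and lower calls each made up about the same share of all genes: 35.6% and 36.9% against SW480, 34.8% and 35.4% against CONTROL, and 25.3% and 24.7% between CONTROL and SW480. The 3 comparisons share libraries, so their values are given side by side.

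Libraries stood apart without overlap for 8 of the 10 genes per comparison, though not the same 8, against 73.1% of all genes in APC against SW480, 73.4% in APC against CONTROL and 56.6% in CONTROL against SW480. The genes that overlapped were JUN and JUNB, JUN and JUND, and FOSB and JUN in that order. In the same direction in both APC comparisons, 1 gene was higher (FOSL1) and 6 were lower (FOS, FOSB, FOSL2, EGR1, EGR3, ATF3), against 27.8% and 28% of all genes (55.8% in either direction).

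**Figure D1:**
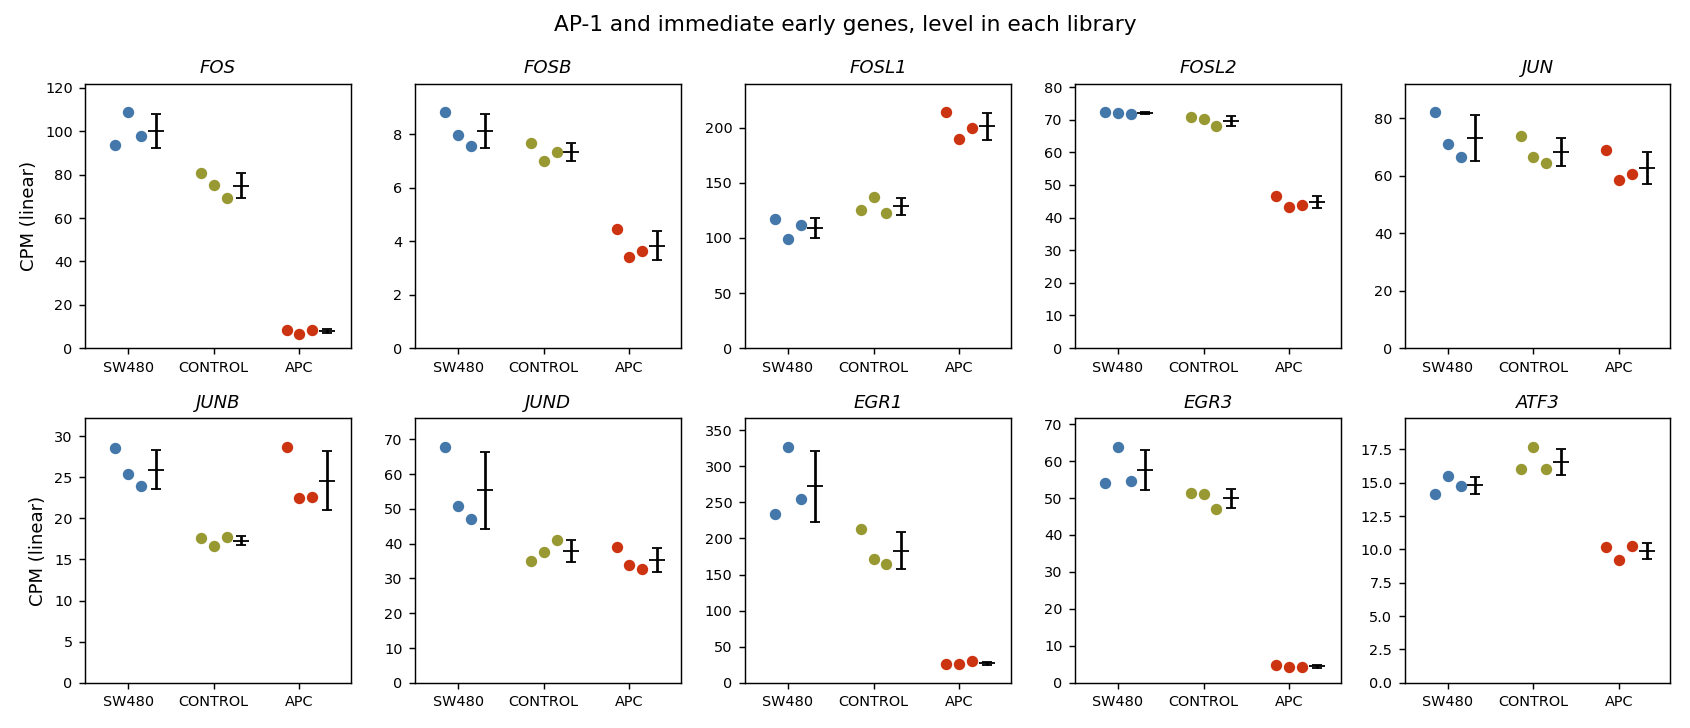
Level of each of the 10 genes in CPM on a linear axis from 0, for SW480, CONTROL and APC libraries. Coloured points are single libraries, and the black mark beside them is the mean with its SD (n = 3). The APC libraries of FOS, EGR1 and EGR3 lie near 0 while those of FOSL1 lie above all others.

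FOS, the prototype of the family, had 93.8, 109 and 97.6 CPM in SW480 replicates 1 to 3. It had 80.7, 75.3 and 69.0 in CONTROL and 8.19, 6.71 and 8.24 CPM in the APC libraries. The 3 groups did not overlap, and the APC libraries were far below the rest. The APC line was 12.96-fold below SW480 (log2 fold change −3.70 ± 0.09 SE, edgeR adjusted p = 7.49e-20) and 9.70-fold below CONTROL (−3.28 ± 0.09, edgeR adjusted p = 1.2e-18). Of the genes tested, 1.40% had a lower change against SW480 and 1.80% against CONTROL. FOS was already 1.34-fold lower in CONTROL than in SW480 (−0.42 ± 0.06, edgeR adjusted p = 6.71e-06).

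EGR1 encodes a zinc finger factor that binds GC-rich sites and is induced together with FOS. Its levels were 234, 327 and 255 in SW480, 212.5, 172 and 165 in CONTROL and, for the APC line, 25.7, 26.03 and 29.6 CPM. The APC libraries lay well below all others, and SW480 and CONTROL libraries did not overlap but varied among themselves, with a coefficient of variation of 17.9% and 14.1%. EGR1 was 10.0-fold lower than in SW480 (−3.33 ± 0.19, edgeR adjusted p = 3.4e-06) and 6.75-fold lower than in CONTROL (−2.75 ± 0.19, edgeR adjusted p = 1.18e-05). CONTROL lay 1.49-fold below SW480 (−0.57 ± 0.15, edgeR adjusted p = 0.0205), and its call was lost without CONTROL replicate 2 (edgeR adjusted p = 0.0686), without CONTROL replicate 3 (0.0731), with only those 6 libraries in the fit (0.0596) and with the replicate number as a block (0.0534).

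EGR3, a related factor with the same type of DNA-binding domain, changed about as much as FOS. It stood at 54.1, 63.9 and 54.7 in SW480, 51.4, 51.2 and 47.0 in CONTROL and, for the APC line, 4.89, 4.28 and 4.21 CPM. No groups overlapped. The RefSeq locus LOC107986924 overlaps EGR3, so reads of the 2 may be mixed. The APC line was 12.9-fold below SW480 (−3.68 ± 0.09, edgeR adjusted p = 5.81e-27) and 11.1-fold below CONTROL (−3.48 ± 0.09, edgeR adjusted p = 5.62e-26). The step from SW480 to CONTROL was −0.21 ± 0.06 (edgeR adjusted p = 0.00357), and its call was lost without SW480 replicate 2 (−0.13, edgeR adjusted p = 0.0736), the SW480 library with the highest EGR3, EGR1 and FOS.

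The upstream sequences of FOS and EGR1 are shown because these genes had the deepest falls among the members whose windows were scanned. Windows of 250 bases before to 50 bases after a start site (RefSeq, GRCh38.p14) were scanned for 8 of the 10 genes. EGR3, which fell more than EGR1 in both APC comparisons, and FOSL1 were not scanned. Both strands were searched for TGANTCA, a pattern that includes the classical AP-1 element and allows any base in its middle. Also searched were TGACGTCA, the cyclic AMP response element, and its variant from the JUN promoter, TGACATCA. The other patterns were the CArG box bound by serum response factor, the TATA box TATAAA, the CCAAT box and an EGR pattern, GCGNGGGCG. Its N allows any base, so a match need not be a typical EGR element. The 250 bases before the start are printed 5′ to 3′ on the gene's strand, with matches in capitals. FOS lies on the plus strand at chr14:75278578-75278827 and EGR1 on the plus strand at chr5:138465229-138465478.
FOS: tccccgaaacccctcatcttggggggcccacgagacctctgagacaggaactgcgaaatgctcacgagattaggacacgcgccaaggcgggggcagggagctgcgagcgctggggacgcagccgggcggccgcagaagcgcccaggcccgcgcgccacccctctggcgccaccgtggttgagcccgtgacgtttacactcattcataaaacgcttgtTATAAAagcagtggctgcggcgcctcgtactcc
EGR1: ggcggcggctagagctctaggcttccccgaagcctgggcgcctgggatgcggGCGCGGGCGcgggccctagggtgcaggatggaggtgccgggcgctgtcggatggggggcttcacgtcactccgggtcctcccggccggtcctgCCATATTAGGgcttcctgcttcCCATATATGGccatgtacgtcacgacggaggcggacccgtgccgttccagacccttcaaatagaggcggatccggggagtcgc
The EGR1 window held 2 CArG boxes, CCATATTAGG at positions −105 to −96 and CCATATATGG at −83 to −74 from the start. It also held 1 match to the EGR pattern, GCGCGGGCG with C at N, at −198 to −190. A CArG box was found in 1.29% of 35116 RefSeq windows and the EGR pattern in 9.43%. FOS held TATAAA at −33 to −28, a motif in 11.5% of windows, and none of the other patterns within its window. Near matches to these patterns were not counted, and sites more than 250 bases before the start were not searched. The scan therefore does not show that FOS lacks such elements. FOSB, at −30 to −25, and JUNB, at −31 to −26, also held TATAAA.

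FOSL1 encodes FRA-1, a FOS family protein that lacks the C-terminal activation domain of FOS and is known for its high expression in invasive carcinoma cells. It moved against the rest of the family, from 117, 99.2 and 112 in SW480 through 126, 137.5 and 122.6 in CONTROL to 214, 190 and 200 CPM in the APC line. The groups were fully separated in that order. FOSL1 was 1.84-fold higher than in SW480 (0.88 ± 0.06, edgeR adjusted p = 1.66e-09), 1.57-fold higher than CONTROL (0.65 ± 0.06, edgeR adjusted p = 7.58e-08) and 1.18-fold higher in CONTROL than in SW480 (0.23 ± 0.06, edgeR adjusted p = 0.00528). It ranked above 91.0% and 86.3% of genes tested in the APC comparisons.

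FOSB, which like FOS carries an activation domain, was the least abundant family member. It stood at 8.83, 7.98 and 7.57 in SW480, 7.68, 7.003 and 7.33 in CONTROL and, for the APC line, 4.45, 3.41 and 3.62 CPM. SW480 and CONTROL libraries overlapped and the APC libraries lay below both, by 2.11-fold (−1.08 ± 0.12, edgeR adjusted p = 2.16e-09) and 1.91-fold (−0.94 ± 0.13, edgeR adjusted p = 7.62e-08). FOSL2, which encodes FRA-2, was the steadiest across plates: 72.4, 72.1 and 71.8 in SW480, 70.8, 70.3 and 68.0 in CONTROL and, for the APC line, 46.7, 43.3 and 44.0 CPM. The APC libraries were again below all others, with log2 fold changes of −0.69 ± 0.05 (edgeR adjusted p = 7.94e-15) and −0.64 ± 0.05 (edgeR adjusted p = 6.7e-14). FOSL2 overlaps an antisense gene in RefSeq, FOSL2-AS1, and the counts are not stated to use strand, so reads from the 2 cannot be told apart. Neither gene was called between CONTROL and SW480 (FOSB −0.15 ± 0.11, edgeR adjusted p = 0.273, and FOSL2 −0.05 ± 0.05, 0.383).

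Levels of different genes were compared on the deposited RPKM scale, which divides by transcript length. On that scale the 4 FOS family genes summed to 117 to 120 RPKM in SW480, 110 to 120 RPKM in CONTROL and 113 to 126 RPKM in the APC line, so the ranges of the 3 groups overlapped. The make-up of that sum differed. FOS supplied 32.4%, 38.8% and 34.2% of it in SW480, 25.5% to 28.2% in CONTROL and 2.61%, 2.41% and 2.82% in the APC line. FOSL1 supplied 45.7% to 52.3% in SW480, 56.9% to 60.3% in CONTROL and 88.5%, 88.5% and 88.3% in the APC line. FOSL2 went from 13.7% ± 0.185 and 13.3% ± 0.416 to 8.20% ± 0.183 (SD, n = 3), and FOSB from 1.63% ± 0.114 and 1.48% ± 0.111 to 0.740% ± 0.0622. The RPKM ratio of FOSL1 to FOS was 1.18 to 1.61 in SW480, 2.02 to 2.36 in CONTROL and 31.4 to 36.7 in the APC line. These shares follow from the levels tested above and were given no test of their own. FOSL1 was the largest component in every line and the only one above 10% in the APC line.

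**Figure D2:**
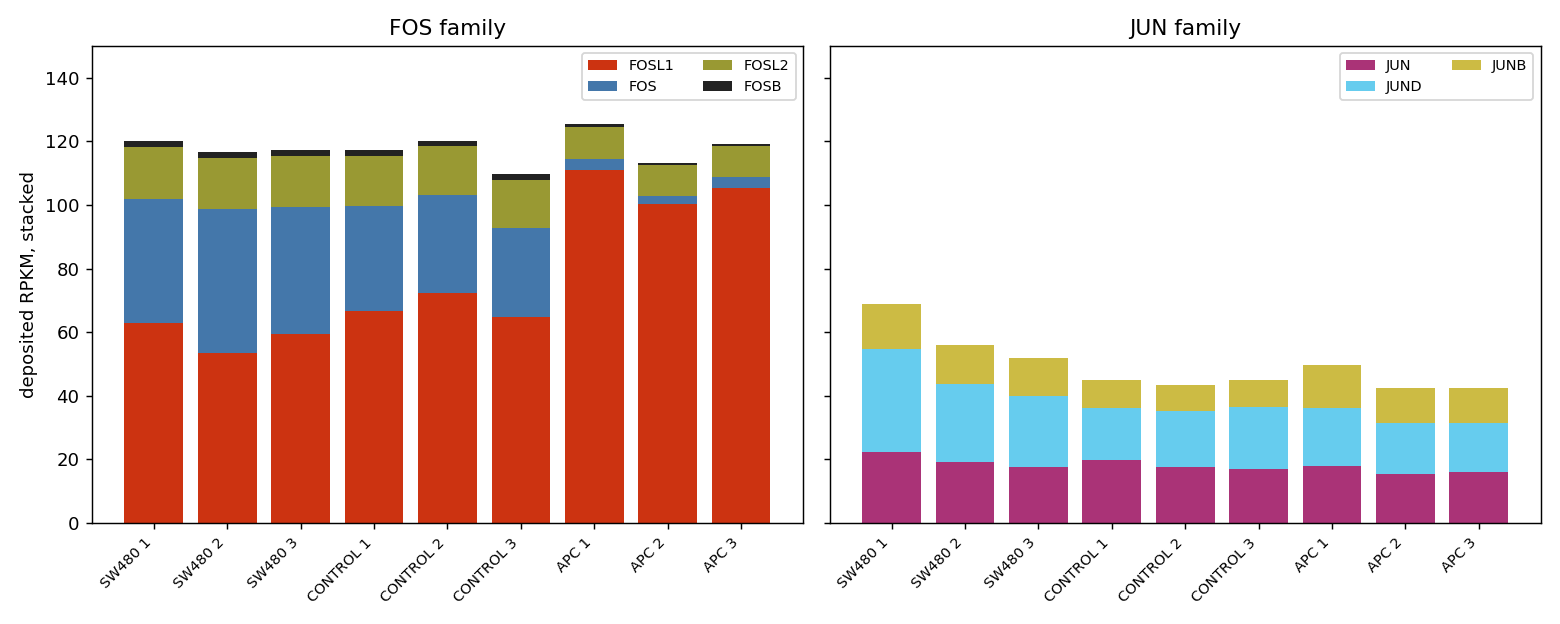
Stacked deposited RPKM of the FOS family genes (left) and the JUN family genes (right) in each of the 9 libraries, on a linear axis from 0. Bar heights of the FOS family are close in all libraries (110 to 126 RPKM), while the FOS segment is thin and the FOSL1 segment tall in the APC libraries.

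The JUN family genes, which supply the partners of the FOS proteins, changed far less than FOS in both APC comparisons. Between CONTROL and SW480, JUNB (−0.58) and JUND (−0.54) changed more than any FOS family gene. JUN had 82.2, 70.9 and 66.4 in SW480, 74.0, 66.4 and 64.6 in CONTROL and, for the APC line, 69.2, 58.5 and 60.7 CPM, and all groups overlapped. Against SW480 it was 1.16-fold lower (−0.22 ± 0.09, edgeR adjusted p = 0.0466). That call was lost with RLE size factors (0.0514) and without SW480 replicate 1 (−0.13, 0.0731), SW480 replicate 2 (0.0711), CONTROL replicate 2 (0.0615), APC replicate 2 (0.156) or APC replicate 3 (0.134), all edgeR adjusted p. JUN was not called against CONTROL (−0.12 ± 0.09, edgeR adjusted p = 0.255) or between CONTROL and SW480 (−0.10 ± 0.09, 0.391). The first of these was called without the low count filter (0.0327), with the replicate block (0.0269) and without APC replicate 1 (−0.19, 0.0405).

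JUNB, often a weaker activator than JUN, was lowest in CONTROL. It stood at 28.5, 25.3 and 24.0 in SW480, 17.6, 16.7 and 17.7 in CONTROL and, for the APC line, 28.7, 22.5 and 22.6 CPM. SW480 and APC libraries overlapped and did not differ by the test (−0.07 ± 0.08, edgeR adjusted p = 0.428), although without APC replicate 1 the change was −0.20 and called (edgeR adjusted p = 0.0218). CONTROL was 1.50-fold below SW480 (−0.58 ± 0.09, edgeR adjusted p = 4.16e-06) and the APC line 1.42-fold above CONTROL (0.51 ± 0.09, edgeR adjusted p = 1.46e-05). JUNB overlaps HOOK2 in RefSeq, and HOOK2 had 16.3 ± 1.74 in SW480, 13.8 ± 0.651 in CONTROL and 34.6 ± 2.10 in the APC line (SD, n = 3). The part of HOOK2 reads in the JUNB counts was not tested.

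JUND, the most constitutive JUN gene in many cell types, differed between the parent and both transfected lines. It had 67.9, 50.9 and 47.2 in SW480, 35.0, 37.7 and 41.2 in CONTROL and, for the APC line, 39.1, 33.95 and 32.6 CPM. SW480 lay above the other groups, which overlapped, and SW480 replicate 1 was high within its group. JUND was 1.57-fold lower in the APC line than in SW480 (−0.65 ± 0.16, edgeR adjusted p = 0.00778) and 1.46-fold lower in CONTROL (−0.54 ± 0.15, edgeR adjusted p = 0.0242). Without SW480 replicate 1 these were −0.48 and −0.37, both called. The call between CONTROL and SW480 was lost without CONTROL replicate 1 (edgeR adjusted p = 0.0756), without CONTROL replicate 2 (0.0647) and with only those 6 libraries in the fit (0.0536). APC and CONTROL did not differ by the test (−0.11 ± 0.16, edgeR adjusted p = 0.593).

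On the RPKM scale the JUN family summed to 51.8 to 68.8 RPKM in SW480, 43.3 to 45.1 RPKM in CONTROL and 42.3 to 49.7 RPKM in the APC line. JUN supplied 33.5% ± 1.11 of it in SW480, 40.8% ± 2.99 in CONTROL and 36.9% ± 0.935 in the APC line (SD, n = 3). JUND supplied 44.7% ± 2.27, 40.3% ± 3.06 and 36.8% ± 0.818, and JUNB 21.8% ± 1.16, 18.9% ± 0.261 and 26.3% ± 0.987. No JUN gene dominated in any line, in contrast to FOSL1 within the FOS family.

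The upstream sequences of JUN and JUND are shown because each held a CRE-type element in its only window. JUN lies on the minus strand at chr1:58784048-58784297 and JUND on the minus strand at chr19:18281623-18281872, both GRCh38.p14 and printed as above.
JUN: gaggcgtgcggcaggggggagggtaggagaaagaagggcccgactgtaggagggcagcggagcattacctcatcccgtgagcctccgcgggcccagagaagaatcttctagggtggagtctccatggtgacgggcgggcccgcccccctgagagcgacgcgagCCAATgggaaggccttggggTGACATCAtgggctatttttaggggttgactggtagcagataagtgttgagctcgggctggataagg
JUND: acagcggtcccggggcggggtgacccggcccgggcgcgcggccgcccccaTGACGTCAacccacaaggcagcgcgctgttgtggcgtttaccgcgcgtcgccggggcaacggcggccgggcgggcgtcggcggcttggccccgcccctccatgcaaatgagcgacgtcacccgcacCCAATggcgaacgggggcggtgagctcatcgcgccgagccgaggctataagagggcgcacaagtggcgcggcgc
In JUN the variant TGACATCA stood at −67 to −60 and CCAAT at −87 to −83. That variant was searched because it is known from the JUN promoter, so its match in JUN was fixed in advance. JUND held TGACGTCA at −200 to −193 and CCAAT at −74 to −70. TGACATCA was found in 2.61% of all windows, TGACGTCA in 1.85% and CCAAT in 34.6%. ATF3, which fell, had TGACATCA at −123 to −116 in 1 of its 2 windows. TGANTCA, found in 7.71% of all windows, occurred once among the members searched, in FOSL2 at 5 to 11 bases after the start. These matches describe letters only.

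ATF3 encodes a bZIP protein induced by many stresses that often acts as a repressor. It stood at 14.2, 15.5 and 14.7 in SW480, 16.0, 17.7 and 16.0 in CONTROL and, for the APC line, 10.2, 9.20 and 10.3 CPM. The APC libraries were below both other groups, by 1.50-fold (−0.58 ± 0.09, edgeR adjusted p = 3.5e-07) and 1.67-fold (−0.74 ± 0.09, edgeR adjusted p = 2.08e-09). CONTROL libraries lay above those of SW480 without passing the test (0.16 ± 0.08, edgeR adjusted p = 0.0884). With counts summed over its 6 transcripts that difference passed (0.17, edgeR adjusted p = 0.0179). These transcripts shared most of their reads, so the sum counts reads repeatedly and can understate counting noise.

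**Figure D3:**
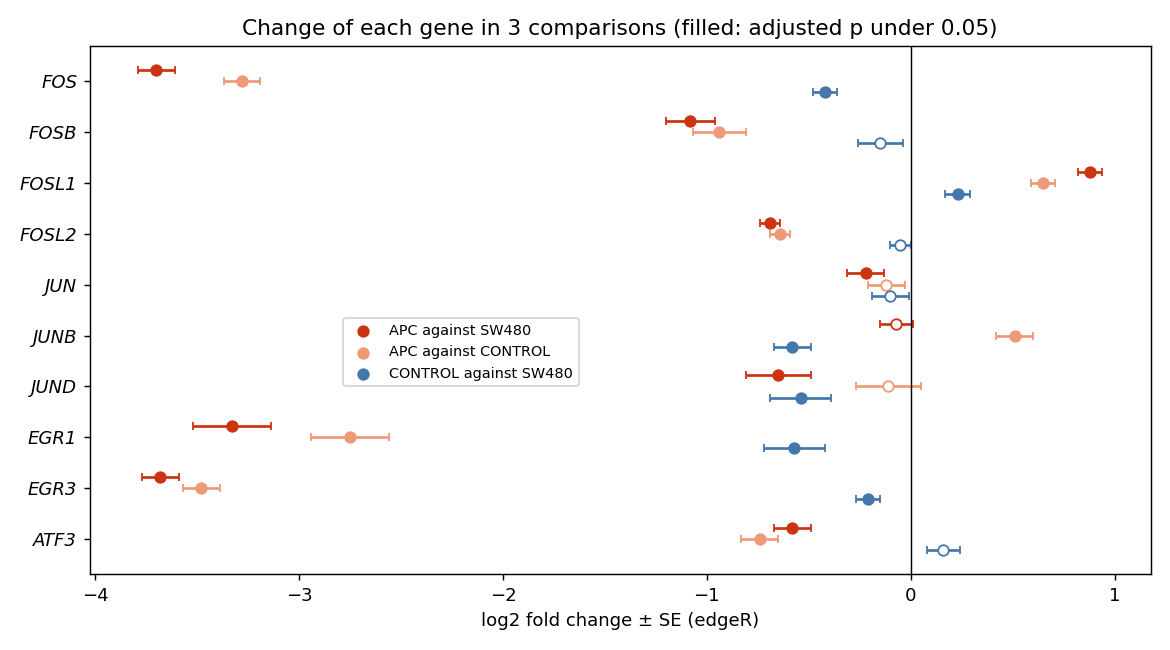
Log2 fold change with its SE for each of the 10 genes in APC against SW480, APC against CONTROL and CONTROL against SW480. Filled points passed the edgeR test, open points did not, and the vertical line marks no change. FOS, EGR1 and EGR3 lie at −2.75 or lower in both APC comparisons, and all CONTROL against SW480 values lie between −0.58 and 0.23.

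The order of the 10 genes by RPKM changed with the lines. In SW480 it was EGR1 (77.5 ± 14.1), FOSL1 (58.5 ± 4.802), FOS (41.5 ± 3.37), JUND (26.5 ± 5.38), JUN (19.7 ± 2.29), FOSL2 (16.2 ± 0.169), JUNB (12.8 ± 1.21), EGR3 (11.9 ± 1.18), ATF3 (5.54 ± 0.257) and FOSB (1.93 ± 0.162), as mean RPKM ± SD with n = 3. Only JUNB and EGR3 overlapped as neighbours. In CONTROL, FOSL1 (67.9 ± 3.96) stood ahead of EGR1 (51.4 ± 7.46) and FOS (30.6 ± 2.46), EGR3 (10.1 ± 0.513) ahead of JUNB (8.39 ± 0.299), and JUN and JUND overlapped. In the APC line FOSL1 (106 ± 5.45) was followed by JUN (16.5 ± 1.31) and JUND (16.5 ± 1.43), which overlapped, then JUNB (11.8 ± 1.59), FOSL2 (9.78 ± 0.305), EGR1 (7.57 ± 0.659), ATF3 (3.62 ± 0.211), FOS (3.12 ± 0.343), EGR3 (0.899 ± 0.0664) and FOSB (0.886 ± 0.118). EGR3 and FOSB overlapped there. EGR1 thus went from rank 1 to rank 6 and FOS from rank 3 to rank 8.

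The rest of the EGR group was read with its corepressors NAB1 and NAB2, which bind EGR proteins and limit their activity. NAB2, itself known as an EGR target, stood at 53.3, 50.7 and 53.0 in SW480, 69.5, 67.0 and 68.3 in CONTROL and, for the APC line, 14.7, 11.2 and 13.6 CPM. It fell 3.96-fold against SW480 (−1.99 ± 0.07, edgeR adjusted p = 1.84e-23) and 5.17-fold against CONTROL (−2.37 ± 0.07, edgeR adjusted p = 5.14e-26). Unlike EGR1 and EGR3 it was higher in CONTROL than in SW480 (0.38 ± 0.05, edgeR adjusted p = 2.63e-07). NAB1 was lower than in SW480 in both transfected lines (log2 fold changes of −0.18 in APC and −0.15 in CONTROL) and was not called between them (−0.04, edgeR adjusted p = 0.502). EGR2, at low counts, had 3.50, 4.77 and 3.12 in SW480, 1.45, 0.983 and 0.883 in CONTROL and, for the APC line, 0.770, 0.521 and 0.643 CPM, with most of its fall already between SW480 and CONTROL (−1.77, edgeR adjusted p = 3.07e-08) and a further difference between APC and CONTROL (−0.77, edgeR adjusted p = 0.0363). EGR4 differed between CONTROL and SW480 (−1.18, edgeR adjusted p = 0.000372) and was not called between APC and CONTROL (−0.09, edgeR adjusted p = 0.819). EGR2 and EGR4 are named after their values were seen.

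**Figure D4:**
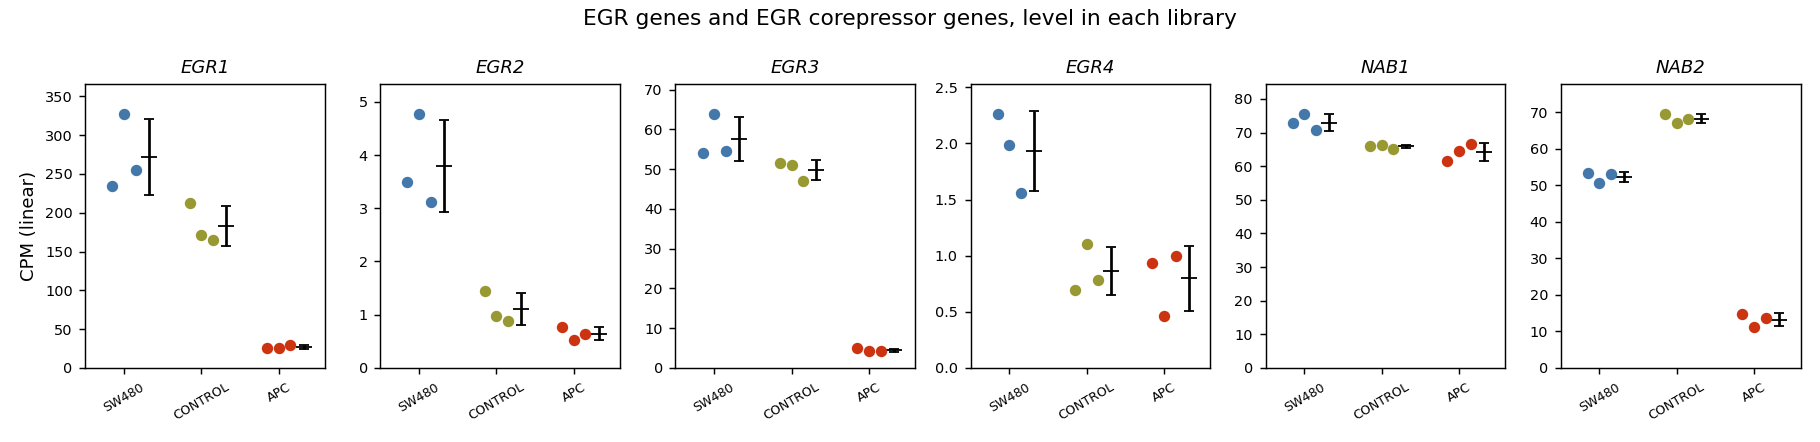
Level in CPM, linear from 0 with a separate axis for each gene, of EGR1 to EGR4, NAB1 and NAB2 in each library. Points are libraries and black marks the mean with SD (n = 3). EGR1, EGR3 and NAB2 drop mainly in the APC libraries, whereas EGR2 and EGR4 are already low in CONTROL.

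Other immediate early genes moved in both directions. Of 35 listed genes 33 were tested, and 7 were higher and 12 lower in both APC comparisons (21.2% and 36.4%, against 27.8% and 28% of all genes). The median log2 fold changes were −0.24 (APC against SW480) and −0.08 (APC against CONTROL). CTGF, a secreted matrix protein gene induced by serum response factor and YAP, fell 13.4-fold and 8.63-fold, from 28.5 ± 1.46 and 18.4 ± 0.804 to 2.14 ± 0.478 CPM (SD, n = 3). RHOB, a short-lived small GTPase gene, went from 613 ± 44.3 and 509 ± 9.89 to 201 ± 5.03 CPM, and TRIB1, a pseudokinase gene, from 138 ± 1.21 and 90.2 ± 5.37 to 42.3 ± 2.17 CPM. KLF4, a zinc finger gene of differentiating epithelium, rose from 4.67 ± 0.662 and 6.92 ± 0.199 to 28.8 ± 0.737 CPM, 6.15-fold and 4.15-fold. ZFP36L2, an mRNA decay factor gene, was 2.09-fold and 2.01-fold higher, and MYC 2.40-fold and 1.92-fold higher. Between CONTROL and SW480, 7 of the 33 were higher and 17 lower (72.7%, against 50% of all genes). TRIB1 and CTGF had the smallest adjusted p there, with log2 fold changes of −0.61 and −0.63.

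**Figure D5:**
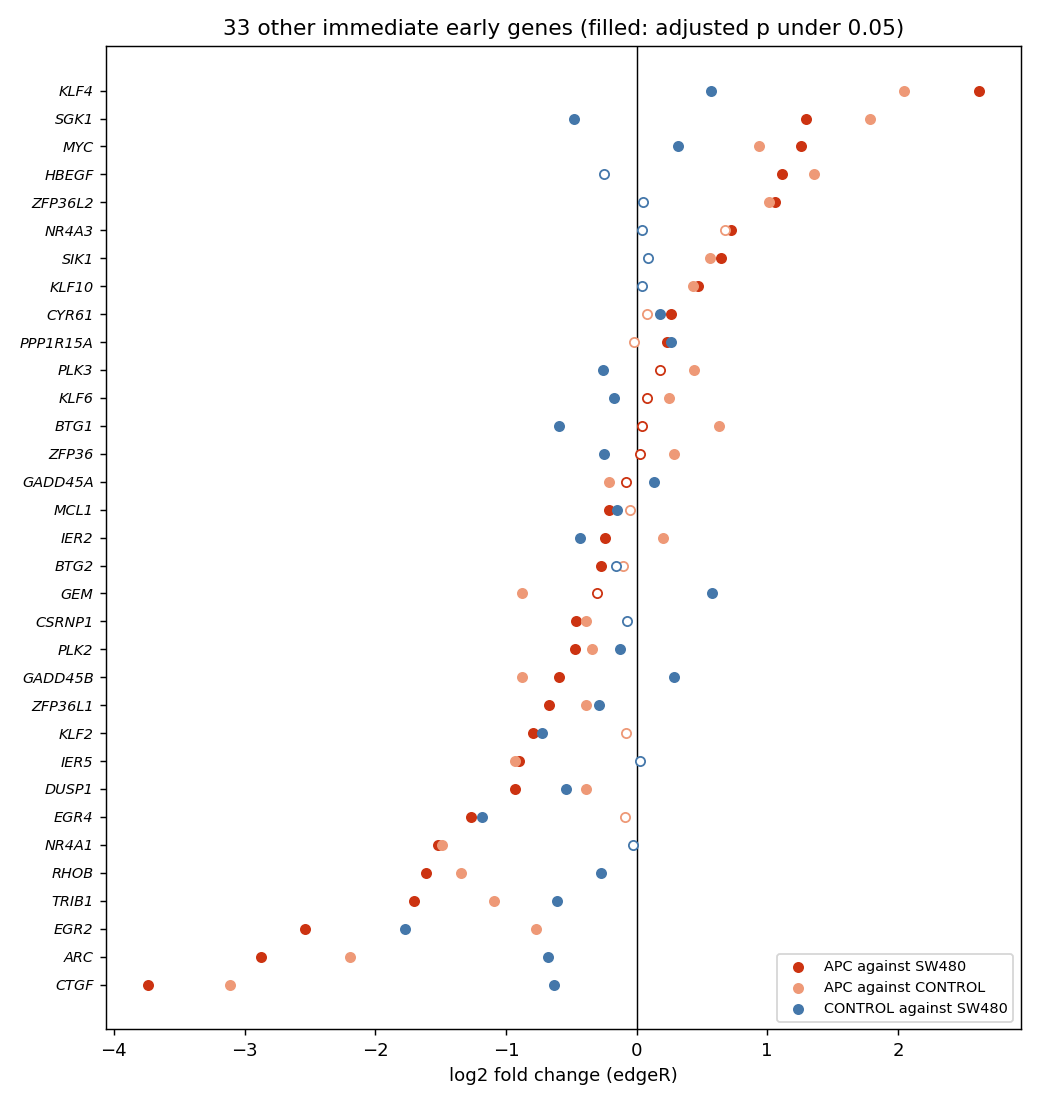
Log2 fold changes of 33 other immediate early genes in the 3 comparisons, ordered by APC against SW480. Filled points passed the edgeR test and open points did not. The genes run from CTGF at −3.74 to KLF4 at 2.62 in APC against SW480.

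Of 13 further bZIP genes that can pair with AP-1 proteins, 12 were tested, and 4 were higher and 3 lower in both APC comparisons (33.3% and 25%, against 27.8% and 28% of all genes). BATF, which pairs with JUN proteins, rose from 4.39 ± 0.386 CPM in SW480 and 6.74 ± 0.106 in CONTROL to 13.9 ± 0.866 CPM in the APC line. JDP2, a JUN dimerisation partner and repressor gene, rose from 13.3 ± 0.515 and 21.9 ± 0.512 to 28.2 ± 1.10 CPM, and was 1.64-fold higher in CONTROL than in SW480. MAFG, a small MAF gene, was 1.16-fold higher in both. ATF7, a relative of ATF2, fell 1.26-fold and 1.59-fold. CREB5 was lower as well but stood below 1 CPM in every group mean. ATF4, the effector of the integrated stress response, was 1.24-fold higher in CONTROL than in SW480.

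Genes that act upstream changed by small factors. Of 20 listed kinases and factors 19 were tested, and 3 were higher and 6 lower in both APC comparisons (15.8% and 31.6%, against 27.8% and 28% of all genes), with medians of 0.00 and −0.03. MAP2K1, the MEK1 gene, rose 1.34-fold and 1.30-fold, RPS6KA1, which encodes an RSK kinase, 1.38-fold and 1.32-fold, and MAP2K2 1.11-fold and 1.10-fold. MAPK8, the JNK1 gene, fell 1.65-fold and 1.27-fold, from 24.0 ± 2.26 and 18.5 ± 0.855 to 14.5 ± 0.970 CPM. MKL1, a coactivator of serum response factor, fell 1.27-fold and 1.26-fold, and ELK1 1.14-fold and 1.17-fold. Between CONTROL and SW480, CREB1 was 1.21-fold and MAPK8 1.30-fold lower. Messenger RNA levels of kinases do not give their activity.

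Genes often listed as AP-1 targets were mostly higher in the APC line. Of 19 listed 12 were tested, 9 higher and 3 lower in both APC comparisons (75% and 25%, against 27.8% and 28% of all genes), with medians of 1.56 and 1.14. The list was assembled with earlier results for several of these genes known, so its count is no independent evidence of its direction. VEGFA, an angiogenic growth factor gene, rose from 9.22 ± 0.835 and 17.5 ± 1.58 to 35.0 ± 0.382 CPM, and CD44, a hyaluronan receptor gene, from 177 ± 6.67 and 232 ± 4.90 to 344 ± 8.04 CPM. Both were also higher in CONTROL than in SW480. In that comparison 7 of the 12 tested genes were called higher and 1 lower (66.7%, against 50% of all genes). The urokinase gene PLAU went from 8.97 ± 0.314 and 12.2 ± 0.205 to 286 ± 7.15 CPM, the gelatinase gene MMP9 from 0.430 ± 0.161 and 0.316 ± 0.0502 to 55.1 ± 0.869 CPM, and the chemokine gene CCL2 from 0.197 ± 0.0816 and 0.0736 ± 0.0297 to 94.0 ± 4.84 CPM. TIMP1, a metalloprotease inhibitor gene, fell 1.81-fold and 1.69-fold, HMOX1 1.60-fold and 1.93-fold, and CCND1 3.39-fold and 2.68-fold.

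Heat shock genes, which respond to handling and stress, were read as a check. Of 7 listed 6 were tested, with 1 higher and 2 lower in both APC comparisons (16.7% and 33.3%, against 27.8% and 28% of all genes). HSPH1 was 1.31-fold and 1.43-fold higher, while HSPB1 was 1.47-fold and 1.65-fold lower and DNAJB1 1.62-fold and 1.39-fold lower. Between CONTROL and SW480, 3 of the 6 were higher and 2 lower (83.3%, against 50% of all genes). HSP90AA1 was 1.28-fold higher in CONTROL than in SW480. Their part in the values of the 10 genes was not tested.

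For each of the 10 genes, the 2 other genes with the closest profile over the 9 libraries were found by the root mean square distance of centred log2 CPM (mean CPM of at least 10). The 9 points fall in 3 groups that share a line, so the distances and Pearson coefficients are descriptions. OXR1 and PDE4D were nearest to FOS (distance 0.131 and 0.154, r = 0.998 in both). NKD1, a Wnt feedback inhibitor gene, and TNFRSF19 were nearest to EGR1 (0.168 and 0.174, r = 0.995 and 0.993). ETV3, which encodes an ETS repressor, and KRT23 were nearest to EGR3 (0.092 and 0.124, r = 0.999 and 0.997), with ETV3 at 122, 120 and 10.6 in SW480, CONTROL and APC. HMGA1, a chromatin architectural gene, was nearest to FOSL1 (0.058, r = 0.990) and stood at 1032, 1235 and 1859 CPM, followed by SMPD2 (0.063). PFKM and COX20 were nearest to FOSL2 (0.027 and 0.041), ABCB8 and TMEM120A to FOSB (0.080 in both), and RNF19B and KHNYN to ATF3 (0.060 and 0.061). AP5S1 and PIP5K1C shared the low CONTROL level of JUNB (0.082 and 0.085), ULK1 and CHST12 were nearest to JUND (0.098 and 0.101) and MICALL2 and LRP10 to JUN (0.066 and 0.070, r = 0.881 and 0.872).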

How the data were processed

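The deposited counts hold unnormalised whole reads for each RefSeq transcript, per the file headers. The authors also deposited RPKM values per transcript and per gene, made from those counts with the listed transcript length. The submitters' processing notes name Trimmomatic, TopHat, GATK and hg19, with no versions. Which counting tool, annotation release and strand setting the authors used is not stated in these sources. The table of 39276 transcripts was reduced to the transcript with the highest total per gene, 20878 genes. Gene names had been turned into dates for 65 transcripts, and RefSeq accessions restored 62 of them. The 6 transcripts of ATF3, 2 of FOSB and 3 of EGR3 held 90.4% to 98.8% of their highest, so transcripts of a gene shared most of their reads.

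edgeR 4.0.16 under R 4.3.3 was run on the counts (TMM, filterByExpr, robust glmQLFit, glmQLFTest) in 1 fit of 9 libraries, with Benjamini-Hochberg adjustment over 14255 genes. The SE is the log2 fold change divided by the square root of F. At 3 libraries against 3, an exact permutation test cannot give a two-sided p under 0.1. CPM use TMM library sizes, 3 counts are 0.155 to 0.182 CPM before scaling. Counts of FOSB and EGR3 in the APC libraries were 59 to 89, where counting error makes up much of the spread. The fit was tested on simulated data. The members, lists and tests were chosen with earlier results of these data known. All 10 members were named, with up to 3 genes per direction from each list called in both APC comparisons, up to 2 from CONTROL against SW480, and the 2 closest profiles. One gene that this rule names is not reported here. Alternatives used DESeq2 1.42.0, limma 3.58.1 on log2 RPKM (pseudocounts 1 and 0.1), RLE factors, no filter, summed transcripts, fits of 6 libraries, the replicate number as a block, a minimum 2-fold change, and leaving out each library.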

Additional observations from a re-analysis of the deposited data

How the results depend on the processing

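With a minimum fold of 2 (edgeR glmTreat), 2050 genes were called in APC against SW480, 1940 in APC against CONTROL and 223 in CONTROL against SW480. Of the 10 members 3 (FOS, EGR1, EGR3), 3 (the same) and 0 were called, and at an unadjusted p under 0.05 also 3, 3 and 0. No called change of a member changed sign under any of the 18 alternatives. FOSL1 higher and FOS, FOSB, FOSL2, EGR1, EGR3 and ATF3 lower in both APC comparisons held in all of them apart from the minimum fold. Leaving out each library gave 8 to 10 members called in APC against SW480, 8 to 9 in APC against CONTROL and 4 to 6 in CONTROL against SW480. On log2(RPKM + 1) the changes of low genes shrink by construction: FOSB was −0.63 and EGR3 −2.76 against SW480. Same-numbered replicates deviated with correlations of −0.069 to 0.106 over all genes, and differently numbered ones with −0.094 to 0.068. Replicate 1 was the highest library in both SW480 and APC for FOSB, FOSL1, FOSL2, JUN, JUNB and JUND. Whether same-numbered plates shared handling was not tested. With the replicate block 10297, 9993 and 7109 genes and 9, 9 and 5 members were called in the 3 comparisons. The deposited gene-level RPKM gave the same member levels.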

Other observations

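SW480 replicate 1 was the highest SW480 library for FOSB, FOSL1, FOSL2, JUN, JUNB and JUND, and SW480 replicate 2 for FOS, EGR1, EGR3 and ATF3. APC replicate 1 was the highest APC library for 7 of the 10 genes, among them all 3 JUN genes. The coefficient of variation in SW480 ran from 0.393% for FOSL2 to 19.9% for JUND. The RPKM ratio of EGR1 to EGR3 was 5.99 to 7.08 in SW480, 4.63 to 5.71 in CONTROL and 7.27 to 9.73 in the APC line, with the APC libraries above all others, and the sum of both genes went from 78.2 to 107 RPKM in SW480 to 8.07 to 9.17 RPKM in the APC line. The 7 AP-1 genes together summed to 169 to 189, 155 to 163 and 156 to 175 RPKM in the 3 lines.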
